A study of Mus musculus with 16 samples.

Results

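The genes described here are 44 genes of the G2 phase and mitosis, chosen by name as a hand-made list of the machinery that brings a cell into division and through it. All 44 were found by symbol in each of the 3 deposited tables, out of 26653 genes listed in any table, and all 44 passed the filter on low values in every table. RNA sequencing of total RNA had been carried out on 16 libraries of mouse cells in 8 groups of 2, to examine transcriptional adaptation, a response in which related genes are thought to change when 1 gene is mutated. In embryonic stem cells (ESCs), an Actb knockout (KO) and a deletion of the full Actb locus were set against wild-type cells; Actb encodes beta-actin. In mouse embryonic fibroblasts (MEFs), an Actg1 KO and a deletion of the full Actg1 locus were set against wild-type cells; Actg1 encodes gamma-actin. In cells labelled mouse kidney fibroblasts (MKFs), a Kindlin-2 KO was set against floxed cells, whose copy of the gene carries flanking recombination sites. Kindlin-2, encoded by Fermt2, is an activator of integrins. The mutated alleles, the Cre or other agent used, the strain, and whether a group is 1 clone or separate cultures are not given in the sources used here, so p-values rest on the spread between 2 libraries a group, possibly a technical one.

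Entry into mitosis is driven by cyclin-dependent kinase 1 (Cdk1) bound to A- and B-type cyclins, once Cdc25 phosphatases have removed inhibitory phosphates from it. The spindle checkpoint then holds the anaphase-promoting complex in check until every kinetochore is attached, after which cyclin B and securin are degraded and the sister chromatids part. Transcripts of many of these genes accumulate in late S and G2 phase and are low in resting cells. In mammalian promoters of this class the MuvB protein complex, with B-MYB and FOXM1 in dividing cells and with RB-like repressors in resting ones, binds a short element called the CHR, often beside CCAAT boxes bound by NF-Y.

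Promoter sequence was looked at because many genes of this class carry a known element that the choice of the list did not use. Of the 44 members, 36 had a promoter window in the RefSeq table for GRCm38.p6, in 40 windows of 300 bases (250 before and 50 after a transcript start). The CHR letters TTTGAA, or TTCAAA on the other strand, were in 27 of 40 windows (67.5%), against 17.9% of all 32851 windows. The CHR variant TTCGAA, which reads the same on both strands, was in 5 of 40 (12.5%), against 1.56% of all windows. The CCAAT letters, or ATTGG on the other strand, were in 30 of 40 (75%), against 37.4% of all windows. TTTGAA and CCAAT, each on either strand, stood together in 23 of 40 windows (57.5%), against 6.95% of all windows. These matches are a description of letters, and no match says only that the letters are not in the window. The 5 windows below run from 120 bases before to 10 bases after the start, 5′ to 3′ on the gene's own strand, with matches to these 3 motifs in capitals. They are shown because these members carry the changes described further on and differ in their motifs. Ccnb2 and Cdk1 have both motifs, Ube2c has TTCAAA and ATTGG, Ccnb1 has CCAAT alone in this stretch, and Kif18a has neither.
Ccnb2 (chr9:70421545-70421674, minus strand): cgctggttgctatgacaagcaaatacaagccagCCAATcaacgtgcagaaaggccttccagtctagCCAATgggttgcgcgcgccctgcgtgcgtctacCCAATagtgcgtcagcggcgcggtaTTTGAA
Cdk1 (chr10:69352903-69353032, minus strand): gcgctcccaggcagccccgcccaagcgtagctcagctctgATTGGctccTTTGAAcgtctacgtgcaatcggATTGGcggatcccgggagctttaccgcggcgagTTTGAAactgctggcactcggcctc
Ube2c (chr2:164769809-164769938, plus strand): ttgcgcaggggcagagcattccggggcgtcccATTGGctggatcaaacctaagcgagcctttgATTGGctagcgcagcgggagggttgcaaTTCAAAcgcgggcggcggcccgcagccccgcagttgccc
Ccnb1 (chr13:100786477-100786606, minus strand): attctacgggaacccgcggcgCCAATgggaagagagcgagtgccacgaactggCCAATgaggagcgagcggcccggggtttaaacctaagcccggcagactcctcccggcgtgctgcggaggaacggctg
Kif18a (chr2:109280618-109280747, plus strand): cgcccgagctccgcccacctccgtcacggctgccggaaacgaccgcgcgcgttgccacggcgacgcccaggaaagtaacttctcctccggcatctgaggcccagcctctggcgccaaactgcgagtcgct

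Levels are given as normalised read counts, the whole-number values of the deposited tables, and each table was scaled on its own, so levels were compared only within a cell type. The values of a library summed to 16022043 to 16529089 in ESCs, 20305511 to 22094490 in MEFs and 15565648 to 16324223 in MKFs. The targeted genes went with the labels. Actb was at 23650 and 22707 in Actb KO ESCs and at 2372 and 2336 in locus deletion ESCs, against 36364 and 34140 in wild-type ESCs. Actg1 was at 1004 and 1026 in Actg1 KO MEFs and at 25 and 15 in locus deletion MEFs, against 5737 and 5672 in wild-type MEFs. Fermt2 was at 1251 and 1240 in Kindlin-2 KO MKFs, against 3078 and 3142 in floxed MKFs. The 8 markers of ESCs summed to between 2490 and 2700 per 1000000 in every ESC library.

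All 44 members were read in every group, as is usual for cultures that divide. Per kilobase of exon, Mki67, a protein of the surface of mitotic chromosomes, and Top2a, the topoisomerase that untangles sister DNA, had the highest levels in the control cells of each table. Top2a stood at 2255 ± 53.3 and Mki67 at 1338 ± 157 normalised read counts per kilobase in wild-type ESCs. In wild-type MEFs Mki67 stood at 2799 ± 147 and Top2a at 2170 ± 88.4, and in floxed MKFs Mki67 stood at 2905 ± 97.1 and Top2a at 2749 ± 57.7 on that scale (SD, n = 2 each). Cdc25c, a phosphatase that activates Cdk1, was the lowest in wild-type ESCs (46.5 ± 2.73) and in wild-type MEFs (44.2 ± 3.02). In floxed MKFs the lowest was Kif18a (57.9 ± 2.16), with Cdc25c next (69.9 ± 3.74).

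In ESCs with a mutated Actb the mitotic genes stayed close to the wild type. Aurka alone was called in each mutant, and this 2.27% of the members was no higher than the share of all genes that fell. In Actb KO ESCs, 1 of 44 members fell and 0 rose, where 2.44% of all 23054 genes tested fell and 2.44% rose (limma on log2(value + 1), Benjamini-Hochberg adjusted p below 0.05, the rule for every call here). In locus deletion ESCs, 1 of 44 fell and 0 rose, where 6% of all genes fell and 5.19% rose. At an unadjusted p below 0.05, 2 members were higher and 6 lower in the KO, where 9.8% of all genes were higher and 10.4% lower. On the same rule 2 members were higher and 4 lower in the locus deletion, where 12.5% of all genes were higher and 13.6% lower. The median log2 fold change of the members was -0.02 in the KO and 0.01 in the locus deletion, with the median of all genes at 0.00 and 0.01. Single members ranged from -0.57 to 0.35 in the KO and from -0.59 to 0.41 in the locus deletion.

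Aurka encodes Aurora kinase A, which matures centrosomes and builds the bipolar spindle. It was at 2094 and 2398 in Actb KO ESCs and at 2042 and 2197 in locus deletion ESCs, against 3041 and 3361 in wild-type ESCs. The 4 mutant libraries lay below both wild-type libraries. The log2 fold change was -0.51 ± 0.11 in the KO (SE, limma adjusted p = 0.039) and -0.59 ± 0.11 in the locus deletion (limma adjusted p = 0.0127), and both comparisons use the same wild-type libraries. The call was lost in each mutant in a limma fit without a trend and in a fit of only the 4 libraries compared. It was also lost when any 1 of the 4 libraries was left out, as were most calls over all genes. Of 13 alternatives 7 kept the call. Over these 13 the log2 fold change ran from -0.61 to -0.41 in the KO and from -0.67 to -0.52 in the locus deletion.

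The remaining core genes did not pass in ESCs. Cdk1 was at 1950 and 2019 in the KO and at 1727 and 1849 in the locus deletion, against 1865 and 1692 in the wild type. Ccnb1, cyclin B1, was at 2286 and 1830 in the KO and at 2385 and 1767 in the locus deletion, against 2486 and 1834 in the wild type, so the libraries numbered 2 were lower in all 3 groups. Plk1, a kinase with roles from mitotic entry to cytokinesis, was at 1579 and 1675 in the KO and at 1654 and 1707 in the locus deletion, against 1684 and 1543 in the wild type. Ccna2, Aurkb, Cdc20, Bub1b, Top2a, Mki67 and Foxm1 had log2 fold changes between -0.28 and 0.32 in both mutants. Top2a came nearest to a change in the same direction in both, at 17650 and 16385 in the KO and at 16174 and 17410 in the locus deletion, against 20661 and 19982 in the wild type (limma adjusted p = 0.191 and 0.116).

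ESC libraries with the same number deviated together, and a replicate block called more members. With the block, 3 members fell in the KO and 0 rose, where 4.03% of all genes fell and 3.99% rose, and in the locus deletion 2 rose and 2 fell, where 7.74% of all genes rose and 8.43% fell. Aurka stayed among those that fell in both mutants (limma adjusted p = 0.0108 in the KO and 0.0028 in the locus deletion with the block). Pttg1, securin, which holds the enzyme separase inactive until anaphase, was at 282 and 282 in the KO and at 347 and 254 in the locus deletion, against 468 and 374 in the wild type. Its limma adjusted p with the block was 0.0409 in the KO and 0.0428 in the locus deletion, and 0.121 and 0.122 without it. Sgo2a, a shugoshin that shields centromeric cohesion, was at 4571 and 4737 in the KO against 5600 and 6473 in the wild type, with a limma adjusted p of 0.0386 with the block and 0.0848 without it. In the locus deletion, Bub1, a checkpoint kinase, was at 2268 and 2109 against 1813 and 1625 in the wild type (limma adjusted p = 0.0288 with the block and 0.076 without it). Nusap1, a microtubule-bundling spindle protein, was at 5034 and 4443 in the locus deletion against 4041 and 3516 in the wild type (limma adjusted p = 0.032 with the block and 0.128 without it).

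Read assignment is uncertain for Sgo2a, which shares 35% of its exon bases with Kctd18 on the opposite strand and has a close copy, Sgo2b, on chromosome 8. Sgo2b, named here after its values were seen, was at 70 ± 1.41 in Actb KO ESCs and 112 ± 1.41 in locus deletion ESCs, against 513 ± 97.6 in wild-type ESCs (SD, n = 2; log2 fold change -2.84 and -2.17, limma adjusted p = 0.000154 and 0.000354). Set directly against each other, Actb KO and locus deletion ESCs differed in 1 of 44 members, where 2.32% of all genes were lower and 2.56% higher in the KO. That member was Nusap1, at 3402 and 2944 in the KO against 5034 and 4443 in the locus deletion (log2 fold change -0.58 ± 0.12, limma adjusted p = 0.0333). Nusap1 lost the call when any 1 of those 4 libraries was left out, as did most of all genes called. With the replicate block, where 3.58% of all genes were lower and 3.94% higher in the KO, Bub1 was lower in the KO as well (limma adjusted p = 0.0412, against 0.107 without the block).

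Other genes of the pathway were taken from lists made alongside the members. Of 51 other mitotic genes, 2 fell (3.92%) and 0 rose in Actb KO ESCs, where 2.44% of all genes fell. In locus deletion ESCs 5 of them rose (9.8%) and 2 fell (3.92%), where 5.19% of all genes rose and 6% fell. G2e3, a ubiquitin ligase of the G2 phase, fell in both, at 924.5 in the KO and 739.5 in the locus deletion, against 1402 in the wild type (log2 fold change -0.60, limma adjusted p = 0.0329, and -0.92, limma adjusted p = 0.0033). Of 24 S phase genes, 0 were called in the KO, and 7 fell (29.2%, against 6% of all genes) and 0 rose in the locus deletion, among them Cdt1, a replication licensing factor, at 1163.5 against 1821.5 in the wild type (-0.65, limma adjusted p = 0.0148). Mybl2, which encodes B-MYB, was at 6387 in the KO and 7929 in the locus deletion, against 5104 in the wild type (0.32, limma adjusted p = 0.158, and 0.63, limma adjusted p = 0.0112). Cdkn1a, the CDK inhibitor p21, was at 512 in the KO and 586 in the locus deletion, against 616 in the wild type, and passed in neither.

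Markers of other cell types differed between the ESC groups. The 4 of 6 muscle markers in the ESC table summed to 106 and 110 per 1000000 in KO ESCs and 11.6 and 15.3 in locus deletion ESCs, against 7.53 and 8.8 in wild-type ESCs, with Acta2 at 1565 and 1631 in the KO and 109 and 134 in the locus deletion, against 2 and 9 in the wild type. The 6 of 8 epithelial markers in the table summed to 601 and 605 in KO ESCs and 499 and 487 in locus deletion ESCs, against 827 and 798 in wild-type ESCs. Most of each sum was Cdh1, at 8280 and 8370 in the KO and 7104 and 6929 in the locus deletion, against 12186 and 11800 in the wild type. In the KO 2 of these 6 rose (Krt8 and Krt18) and 1 fell (Cdh1). In the locus deletion 0 rose and 3 fell (Cdh1, Krt8 and Krt18). The part of these markers in the values of the mitotic genes was not tested.

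In MEFs the mitotic genes moved in opposite directions in the 2 Actg1 mutants. In Actg1 KO MEFs 24 of 44 members fell and 0 rose, where 19.1% of all 21589 genes tested fell and 20.6% rose; 1 member was higher at an unadjusted p below 0.05. In locus deletion MEFs 23 of 44 rose and 0 fell, where 9.46% of all genes rose and 12.6% fell, and no member was lower at an unadjusted p below 0.05. The median log2 fold change was -0.26 in the KO and 0.28 in the locus deletion, with the median of all genes at 0.06 and 0.00. With only genes of a mean of at least 10 tested, 26 members fell in the KO and 0 rose, where 27.1% of all genes fell and 25% rose. On that rule 27 rose in the locus deletion and 0 fell, where 15% of all genes rose and 18.8% fell. The summed values of the 44 members were 6550 and 6430 per 1000000 in KO MEFs and 8830 and 9440 in locus deletion MEFs, against 7600 and 7960 in wild-type MEFs. The KO libraries lay below the wild type and the locus deletion libraries above it, with no overlap among the 3 groups. In such bulk samples, fewer cells in G2 and mitosis and less of these transcripts per cell cannot be told apart.

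**Figure D1:**
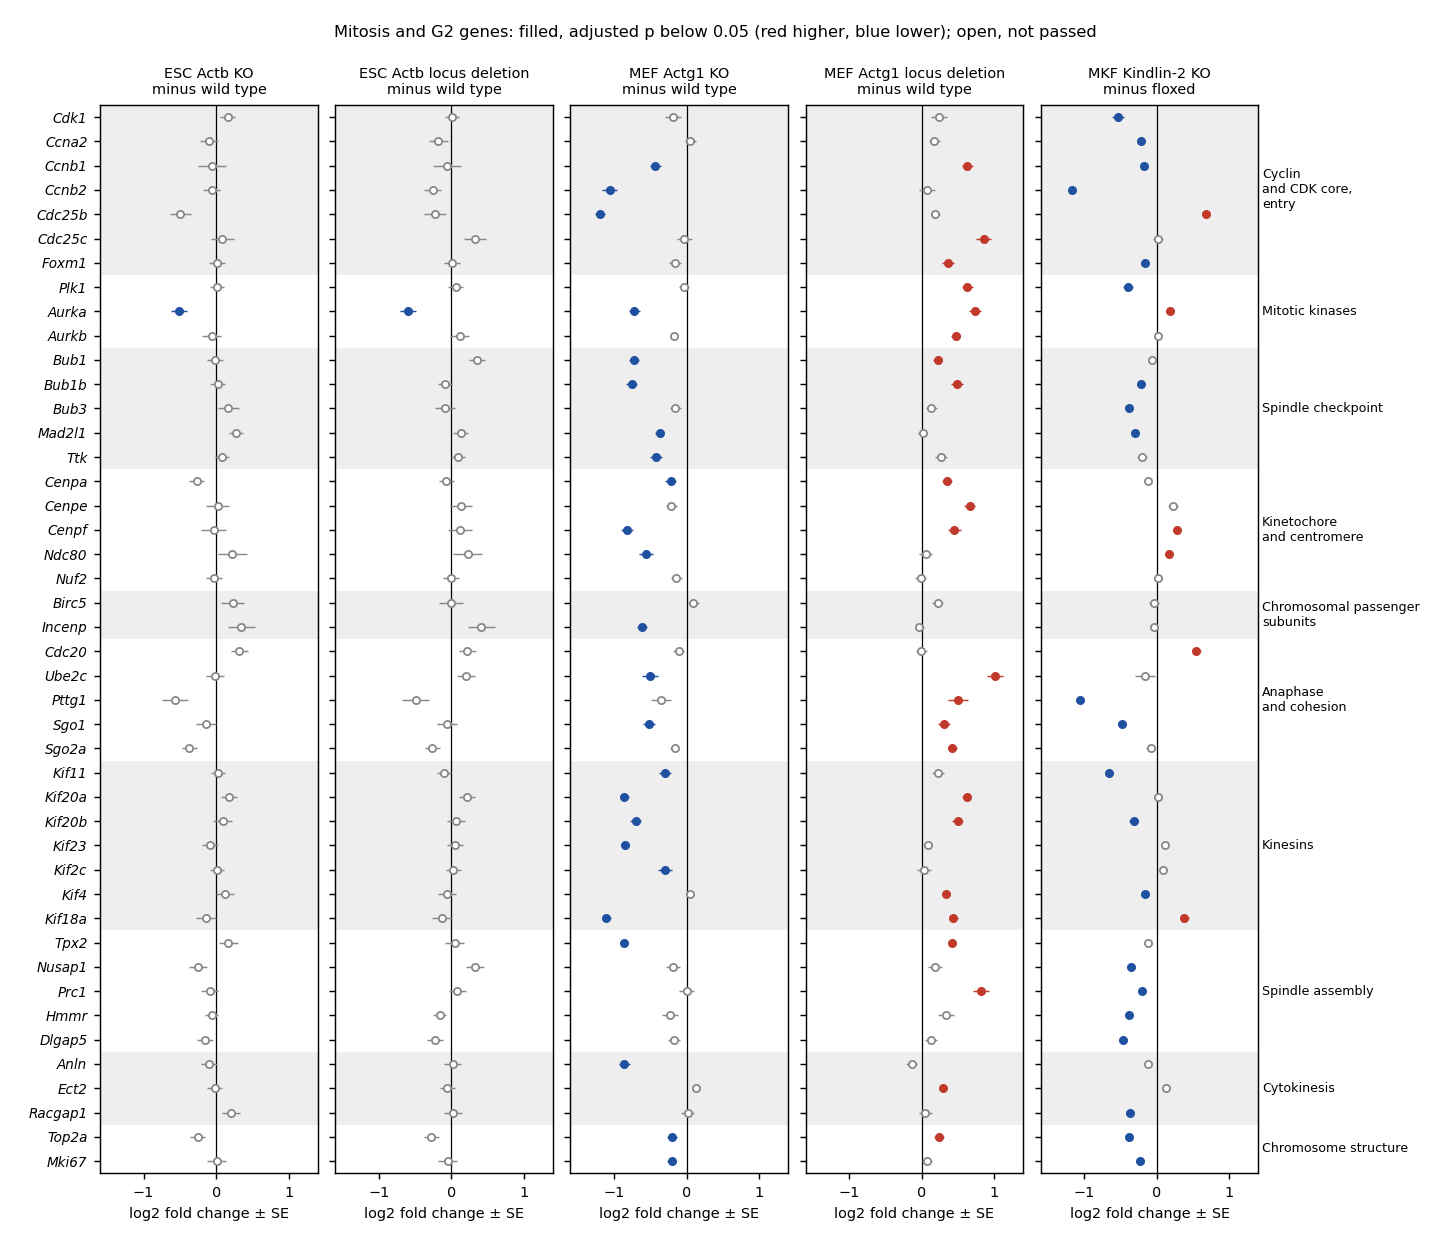
Log2 fold change (x axis, with SE) of each of the 44 members (rows, in bands by role) in the 5 comparisons of a mutant with its control, filled where the limma adjusted p is below 0.05. Filled points lie on the left in Actg1 KO MEFs (24 members) and on the right in locus deletion MEFs (23 members), and on both sides in Kindlin-2 KO MKFs (21 left, 6 right), with Aurka alone filled in the ESC comparisons.

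Leaving out libraries lowered these counts without turning their direction. In Actg1 KO MEFs 15 members fell without KO library 1, without KO library 2 or without wild-type library 2, and 20 without wild-type library 1. In locus deletion MEFs 21 and 15 members rose without locus deletion libraries 1 and 2, and 12 and 15 without wild-type libraries 1 and 2. With the same libraries left out, 10.4% to 13.1% of all genes fell in the KO, and 3.29% to 5.66% rose in the locus deletion. Anln was the 1 member that fell in the locus deletion when its library 2 was left out. After rescaling by median ratios the KO had 21 lower members and 1 higher, Ect2, where 18% of all genes fell and 24.1% rose. Top2a, Mki67 and Cenpa were then no longer called.

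Of 7 cyclins and entry factors, 3 fell in the KO (Ccnb1, Ccnb2 and Cdc25b) and 3 rose in the locus deletion (Ccnb1, Cdc25c and Foxm1). Cdk1 was at 2566 and 2632 in KO MEFs and at 3079 and 3963 in locus deletion MEFs, against 2859 and 3043 in wild-type MEFs, and it passed in neither mutant (limma adjusted p = 0.23 and 0.163). Ccna2, cyclin A2, was at 4892 and 4844 in the KO and at 4905 and 5725 in the locus deletion, against 4697 and 4710 in the wild type, and did not pass either. Cdc25b, a phosphatase that starts the activation of Cdk1, was at 755 and 816 in the KO and at 2006 and 2089 in the locus deletion, against 1813 and 1778 in the wild type. It had the most negative value of any member in the KO (log2 fold change -1.19 ± 0.07, limma adjusted p = 1.17e-05) and did not pass in the locus deletion (0.19, limma adjusted p = 0.0794). Ccnb2, cyclin B2, was at 489 and 517 in the KO and at 985 and 1234 in the locus deletion, against 1024 and 1076 in the wild type. It was lower in the KO alone (log2 fold change -1.06, limma adjusted p = 0.000186), and the locus deletion libraries lay on either side of the wild type. Ccnb1 was at 672 and 606 in the KO and at 1301 and 1361 in the locus deletion, against 873 and 846 in the wild type, and passed both ways (log2 fold change -0.43 and 0.63, limma adjusted p = 0.00288 and 0.00107). Cdc25c rose in the locus deletion, at 379 and 410 against 228 and 207 in the wild type (0.86, limma adjusted p = 0.00105), and was at 209 and 216 in the KO. Foxm1, the transcription factor that drives many of these genes, rose in the locus deletion, at 3169 and 3514 against 2778 and 2432 in the wild type (0.36, limma adjusted p = 0.017), and did not pass in the KO, at 2324 and 2324. Processed pseudogenes named after Ccnb1, Ccnb2 and Kif4 exist, and Cdc25c shares 12.7% of its exon bases with an opposite-strand gene, so some reads of these members are of uncertain origin.

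All 3 mitotic kinases rose in the locus deletion, and Aurka alone fell in the KO. Aurka was at 767 and 842 in KO MEFs and at 2082 and 2330 in locus deletion MEFs, against 1331 and 1314 in wild-type MEFs. The 3 groups were far apart on the scale of their replicates (log2 fold change -0.72 in the KO, limma adjusted p = 0.000272, and 0.74 in the locus deletion, limma adjusted p = 0.000659). Plk1 was at 948 and 978 in the KO and at 1455 and 1595 in the locus deletion, against 1025 and 948 in the wild type, so the KO overlapped the wild type and the locus deletion lay above it (0.63, limma adjusted p = 0.00106). Aurkb, the kinase of the chromosomal passenger complex, was at 942 and 953 in the KO and at 1502 and 1463 in the locus deletion, against 1091 and 1046 in the wild type (-0.17, limma adjusted p = 0.0577, and 0.47, limma adjusted p = 0.00155). Its partner Incenp, the scaffold of that complex, fell in the KO instead, at 3092 and 2787, with 4470 and 4313 in the locus deletion, against 4569 and 4406 in the wild type (-0.61, limma adjusted p = 0.000256).

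**Figure D2:**
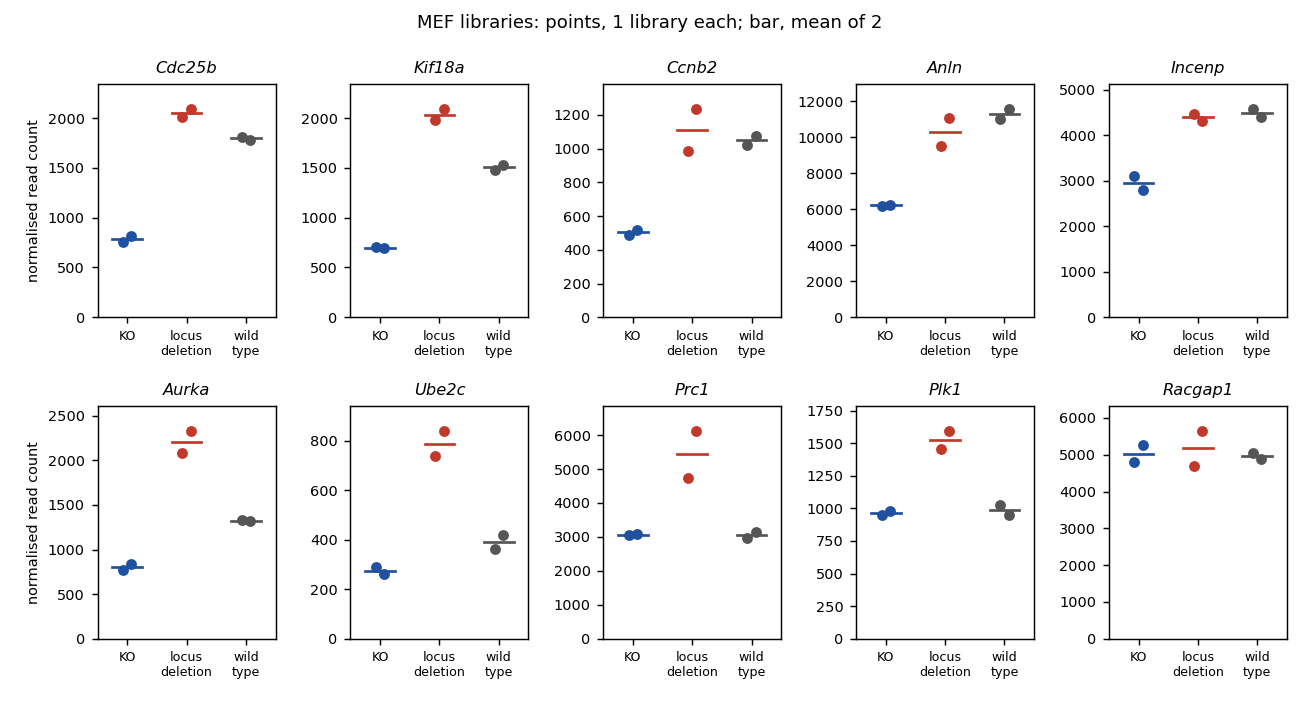
Normalised read count (y axis, from 0) of 10 members in each MEF library, with a point for each library and a line at the mean of the 2. Cdc25b, Ccnb2, Anln and Incenp are low in KO MEFs alone, Prc1 and Plk1 are high in locus deletion MEFs alone, Aurka, Ube2c and Kif18a differ from the wild type in both mutants, and Racgap1 overlaps in all groups.

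Of 5 spindle checkpoint genes, 4 fell in the KO (Bub1, Bub1b, Mad2l1 and Ttk) and 2 rose in the locus deletion (Bub1 and Bub1b). Bub1b, which encodes the checkpoint protein BubR1, was at 1880 and 1915 in the KO and at 4156 and 4881 in the locus deletion, against 3148 and 3269 in the wild type (log2 fold change -0.76, limma adjusted p = 0.000228, and 0.49, limma adjusted p = 0.00431). Bub1 was at 1287 and 1204 in the KO and at 2314 and 2476 in the locus deletion, against 2076 and 2038 in the wild type. Both genes had KO libraries below and locus deletion libraries above the wild type. Of 5 kinetochore and centromere genes, 3 fell in the KO (Cenpa, Cenpf and Ndc80) and 3 rose in the locus deletion (Cenpa, Cenpe and Cenpf). Cenpf, a large kinetochore protein, was at 4096 and 3690 in the KO and at 9612 and 9141 in the locus deletion, against 6384 and 7359 in the wild type (-0.82, limma adjusted p = 0.000199, and 0.45, limma adjusted p = 0.00765). Cenpe, a kinesin that carries chromosomes to the spindle equator, was at 7142 and 7161 in the locus deletion against 4191 and 4858 in the wild type (0.66, limma adjusted p = 0.000881).

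Anaphase and cohesion genes rose in 4 of 5 cases in the locus deletion (Ube2c, Pttg1, Sgo1 and Sgo2a) and fell in 2 of 5 in the KO (Ube2c and Sgo1). Ube2c, which encodes the ubiquitin-conjugating enzyme of the anaphase-promoting complex, had the highest log2 fold change of any member in the locus deletion. It was at 289 and 263 in the KO and at 737 and 841 in the locus deletion, against 362 and 419 in the wild type (-0.50, limma adjusted p = 0.00875, and 1.01 ± 0.11, limma adjusted p = 0.000707). Ube2c shares 22.8% of its exon bases with Tnnc2 on the opposite strand. Cdc20, the activator that switches that complex on, was at 772 and 834 in the KO and at 876 and 846 in the locus deletion, against 902 and 830 in the wild type, and passed in neither. Pttg1 was at 363 and 441 in the locus deletion against 290 and 276 in the wild type (0.50, limma adjusted p = 0.039).

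The kinesins had the most members lower in the KO, 6 of 7, with 4 of 7 higher in the locus deletion. Kif18a, which damps the swinging of chromosomes at the spindle equator, was at 701 and 695 in the KO and at 1980 and 2090 in the locus deletion, against 1484 and 1529 in the wild type (log2 fold change -1.11, limma adjusted p = 1.23e-05, and 0.43, limma adjusted p = 0.00229). Kif20a, a kinesin of the central spindle, was at 977 and 1048 in the KO and at 2795 and 2842 in the locus deletion, against 1818 and 1845 in the wild type (-0.86, limma adjusted p = 3.39e-05, and 0.62, limma adjusted p = 0.000441); 29.3% of its exon bases are shared with Cdc23 on the opposite strand. Kif20b, a kinesin of late mitosis, was at 3798 and 3558 in the KO and at 8225 and 8624 in the locus deletion, against 5584 and 6381 in the wild type. All 3 kinesins were lower in the KO and higher in the locus deletion. Kif23, a motor of the central spindle, fell in the KO alone, at 2370 and 2402, with 4574 and 4628 in the locus deletion, against 4205 and 4419 in the wild type (-0.85, limma adjusted p = 2.09e-05).

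Among spindle assembly and cytokinesis genes, the calls differed from gene to gene. Tpx2, the activator of Aurora A on the spindle, was at 3612 and 3613 in the KO and at 8503 and 9072 in the locus deletion, against 6460 and 6650 in the wild type (log2 fold change -0.86, limma adjusted p = 2.39e-05, and 0.42, limma adjusted p = 0.00171). Prc1, which crosslinks the microtubules of the central spindle, rose in the locus deletion, at 4748 and 6126 against 2982 and 3151 in the wild type, and was at 3052 and 3080 in the KO (0.00 in the KO; 0.81, limma adjusted p = 0.00175, in the locus deletion). Its call in the locus deletion held in 9 of 13 alternatives. Anln, anillin, a scaffold of the contractile ring that binds actin, fell in the KO alone, at 6176 and 6252, with 9525 and 11054 in the locus deletion, against 10985 and 11550 in the wild type (-0.86, limma adjusted p = 0.000101). Racgap1, a protein of the central spindle, was at 4806 and 5258 in the KO and at 4693 and 5650 in the locus deletion, against 5049 and 4889 in the wild type, with every group overlapping. Top2a was at 17309 and 16822 in the KO and at 22118 and 24083 in the locus deletion, against 18994 and 20121 in the wild type (-0.20, limma adjusted p = 0.0475, and 0.24, limma adjusted p = 0.0369). Mki67 was at 24638 and 24126 in the KO and at 28591 and 30609 in the locus deletion, against 27110 and 29202 in the wild type (-0.21, limma adjusted p = 0.0411, and 0.07, limma adjusted p = 0.507).

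The 2 MEF mutants were then set directly against each other, since the comparisons above share the wild-type libraries. In KO MEFs 39 of 44 members were lower than in locus deletion MEFs and 0 were higher, also at an unadjusted p below 0.05, where 20.7% of all genes were lower and 24.5% higher. The median of the members was -0.63, with all 44 log2 fold changes below 0, and the median of all genes was 0.07. For 43 of 44 members both KO libraries lay below both locus deletion libraries, as did 31.8% of all genes. The 39 members comprised 13 that were called lower in the KO and higher in the locus deletion, 10 called higher in the locus deletion alone, 11 called lower in the KO alone, and 5 called in neither comparison with the wild type (Cdk1, Bub3, Nusap1, Hmmr and Dlgap5). The 5 members that did not pass were Ccna2, Nuf2, Birc5, Cdc20 and Racgap1. With only genes of a mean of at least 10 tested, 39 members were again lower, where 28.7% of all genes were lower and 28.5% higher. Kif18a, at -1.54 ± 0.06, Ube2c, at -1.51 ± 0.11, and Kif20a, at -1.48 ± 0.06, differed most (limma adjusted p = 2.06e-06, 2.76e-05 and 2.23e-06). The median of the members was -0.65 without KO library 1 and -0.62 without KO library 2. It was -0.70 without locus deletion library 1 and -0.60 without locus deletion library 2. In each of these fits the median of all genes was 0.07. Fewer members, and fewer of all genes, passed without either KO library or without locus deletion library 2.

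The same lists of other pathway genes had more calls in MEFs, as did all genes. Of 51 other mitotic genes, 18 fell (35.3%, against 19.1% of all genes) and 3 rose (5.88%, against 20.6%) in the KO. Among those that fell was Knl1, a kinetochore scaffold, at 3001 against 6394.5 in the wild type (log2 fold change -1.09, limma adjusted p = 1.41e-05). In the locus deletion 21 of 51 rose (41.2%, against 9.46% of all genes) and 9 fell (17.6%, against 12.6%), with Cdca3 at 1309 against 827 in the wild type (0.66, limma adjusted p = 0.00248) and Spc24, a kinetochore subunit, lower at 582.5 against 921 in the wild type (-0.66, limma adjusted p = 0.00184). Of 24 S phase genes, 4 rose (16.7%, against 20.6% of all genes) and 9 fell (37.5%, against 19.1%) in the KO. In the locus deletion 2 rose (8.33%, against 9.46%) and 11 fell (45.8%, against 12.6%). Mcm4, a helicase subunit, was at 6189.5 in the KO against 14796 in the wild type (-1.26, limma adjusted p = 6.13e-06). Of 19 MuvB, MYB, RB and E2F regulators, 3 rose (15.8%, against 20.6% of all genes) and 9 fell (47.4%, against 19.1%) in the KO. In the locus deletion 2 rose (10.5%, against 9.46%) and 9 fell (47.4%, against 12.6%). Mybl2 was at 1119.5 in the KO and 1737 in the locus deletion, against 1847 in the wild type (-0.72, limma adjusted p = 0.00026, in the KO; -0.09, limma adjusted p = 0.477, in the locus deletion). Of 8 G1 cyclins and kinases, 5 fell (62.5%, against 19.1% of all genes) and 0 rose in the KO. In the locus deletion 4 fell (50%, against 12.6%), Ccnd1 and Ccnd3 among them, and 1 rose (12.5%, against 9.46%). Ccnd1, cyclin D1, was at 1871 in the KO against 5847 in the wild type (-1.64, limma adjusted p = 2.24e-06). Cdkn1a was at 210 in the KO and 155 in the locus deletion, against 166.5 in the wild type, and passed in neither.

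Cell type markers also moved between the MEF groups. The 10 fibroblast markers summed to 7670 and 7950 per 1000000 in KO MEFs and 1900 and 1890 in locus deletion MEFs, against 2220 and 2000 in wild-type MEFs. In the KO 6 of the 10 rose and 2 fell, and in the locus deletion 0 rose and 4 fell. Col1a1, a collagen, was at 84930 and 91165 in KO MEFs and at 16507 and 15657 in locus deletion MEFs, against 15137 and 13197 in wild-type MEFs. Of the 8 markers of ESCs only 2, Sox2 and Nanog, were in the MEF table. Sox2, a stem cell factor, was at 1326 and 1306 in KO MEFs and listed at 0 in both locus deletion libraries, against 44 and 32 in wild-type MEFs. Nanog was low, at 18 and 15 in KO MEFs and 1 and 5 in locus deletion MEFs, against 4 and 2 in wild-type MEFs. The 5 of 6 muscle markers in the MEF table summed to 1420 and 1510 per 1000000 in KO MEFs and 2490 and 2570 in locus deletion MEFs, against 761 and 777 in wild-type MEFs. Most of each sum was Acta2. Of these 5, 4 rose in the KO (Des, Acta2, Cnn1 and Myod1) and 2 in the locus deletion (Acta2 and Cnn1), and 0 fell in either. Des and Myod1 had low values. Des was at 30 and 38 in KO MEFs against 8 and 12 in wild-type MEFs, and Myod1 at 9 and 5 against 0 and 0. Acta2, smooth muscle actin and a relative of the targeted gene, was at 26533 and 28811 in KO MEFs and at 52609 and 55623 in locus deletion MEFs, against 15819 and 16328 in wild-type MEFs. The part of these differences in the values of the mitotic genes was not tested.

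In Kindlin-2 KO MKFs the mitotic genes fell more often than they rose, and a few moved the other way. Of 44 members 21 fell and 6 rose, where 24.9% of all 18288 genes tested fell and 24.3% rose. The share that rose was 13.6% of the members and the share that fell was 47.7%. The median of the members was -0.16, with the median of all genes at 0.01. With only genes of a mean of at least 10 tested, 23 members fell and 7 rose, where 31.6% of all genes fell and 30.1% rose. The summed values of the members were 9940 and 9860 per 1000000 in KO MKFs, against 10800 and 10900 in floxed MKFs, so the groups did not overlap. Leaving out any 1 library lowered these counts. Without KO library 1, 7 members fell and 2 rose, where 11.4% of all genes fell and 9.6% rose. Without KO library 2, 5 members fell and 2 rose, where 11% of all genes fell and 9.31% rose. With either floxed library left out, 3 members fell (Ccnb2, Pttg1 and Kif11) and 0 rose, where 5.28% and 5.13% of all genes fell and 6.23% and 6.57% rose without floxed libraries 1 and 2. The share of members that fell was then near that of all genes.

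Markers of cell type go with this comparison and against the label. Of 10 fibroblast markers 5 had values in MKFs, summing to 10.7 and 11.2 per 1000000 in KO MKFs, against 9.55 and 10.4 in floxed MKFs. Of these 5, 2 rose (Pdgfra and Fbn1) and 3 fell (Col1a1, Col1a2 and Pdgfrb). Fbn1 was at 149 and 154 in KO MKFs against 74 and 86 in floxed MKFs. Col1a1 was at 10 and 8 in KO MKFs against 49 and 64 in floxed MKFs. All 8 epithelial markers had values, summing to 1620 and 1690 per 1000000 in KO MKFs, against 387 and 395 in floxed MKFs, and 7 of the 8 rose. Epcam, a surface protein of epithelia, was at 3430 and 3401 in KO MKFs against 26 and 11 in floxed MKFs. Among genes of kidney tubule epithelium, Cdh16 was at 3160 and 3005 in KO MKFs against 1510 and 1571 in floxed MKFs, and Pax8, which did not pass, was at 2238 and 2219 in KO MKFs against 2044 and 2126 in floxed MKFs. The part of these marker differences in the values of the mitotic genes was not tested.

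Of 7 cyclins and entry factors 5 fell in KO MKFs, while Cdc25b rose and Cdc25c did not pass. Ccnb2 was at 513 and 508 in KO MKFs, against 1131 and 1168 in floxed MKFs, the lowest fold change of any member (log2 fold change -1.17 ± 0.05, limma adjusted p = 0.000133). Cdk1 was at 1819 and 1622 in KO MKFs, against 2342 and 2643 in floxed MKFs (-0.53, limma adjusted p = 0.00629). Ccna2, Ccnb1 and Foxm1 fell by less, with log2 fold changes of -0.21, -0.18 and -0.17 (limma adjusted p = 0.00709, 0.0188 and 0.0218). Ccnb1 was at 1093 and 1097 in KO MKFs against 1241 and 1241 in floxed MKFs, a small difference beside a smaller spread. Cdc25b rose, at 1291 and 1347 in KO MKFs against 836 and 813 in floxed MKFs (0.68 ± 0.05, limma adjusted p = 0.000498), and kept the call in 10 of 12 alternatives.

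**Figure D3:**
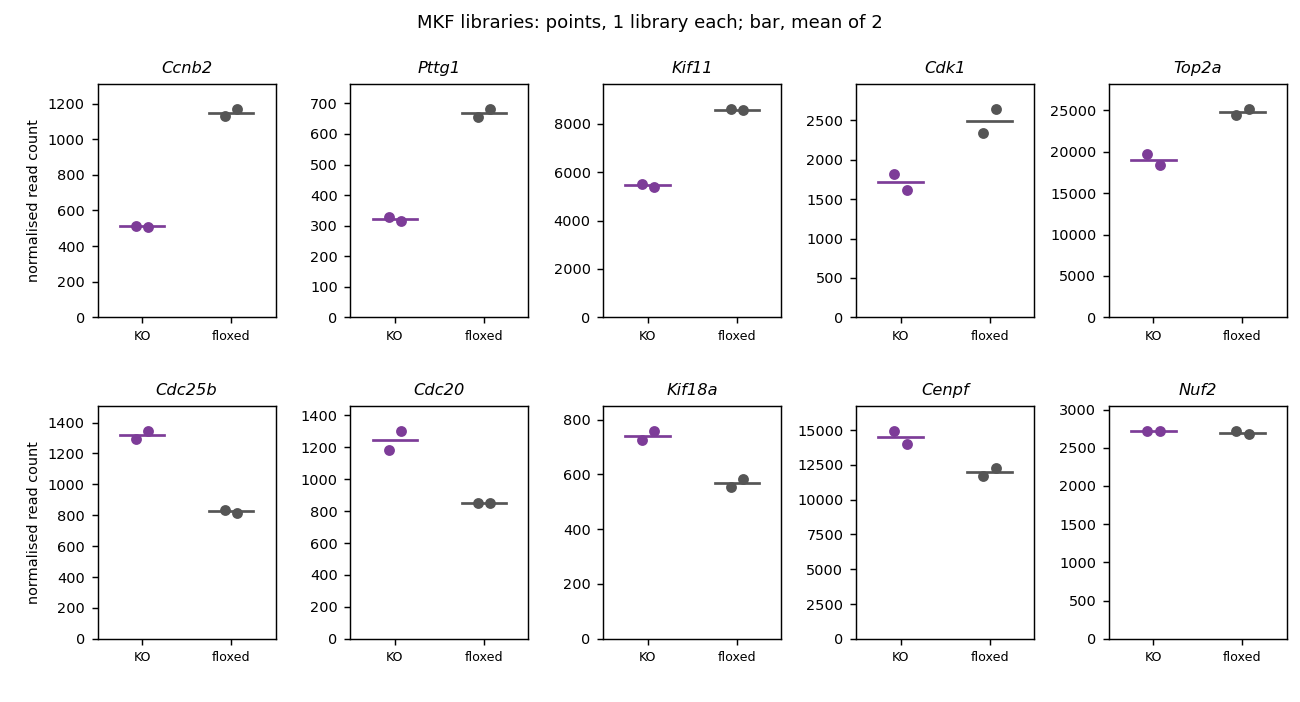
Normalised read count (y axis, from 0) of 10 members in each MKF library, with a point for each library and a line at the mean of the 2. Ccnb2, Pttg1, Kif11, Cdk1 and Top2a lie lower in KO MKFs, Cdc25b, Cdc20, Kif18a and Cenpf lie higher, and Nuf2 overlaps.

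The regulators of anaphase were split. Pttg1, securin, fell, at 327 and 315 in KO MKFs against 655 and 681 in floxed MKFs (log2 fold change -1.05 ± 0.06, limma adjusted p = 0.000267). Cdc20, whose complex marks securin for degradation, rose, at 1183 and 1303 in KO MKFs against 851 and 850 in floxed MKFs (0.55 ± 0.06, limma adjusted p = 0.002). Sgo1, which protects cohesion at centromeres, fell, at 1308 and 1252 in KO MKFs against 1814 and 1741 in floxed MKFs (-0.47, limma adjusted p = 0.00136). The KO and floxed libraries did not overlap for any of these 3 genes. Ube2c was at 472 and 363 in KO MKFs against 446 and 478 in floxed MKFs and did not pass, the KO libraries lying on either side of a floxed one.

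Of the mitotic kinases, Plk1 fell, at 855 and 943 in KO MKFs against 1152 and 1213 in floxed MKFs (log2 fold change -0.40, limma adjusted p = 0.00728). Aurka rose, at 1240 and 1259 in KO MKFs against 1069 and 1129 in floxed MKFs (0.19, limma adjusted p = 0.0297). Aurkb was at 1068 and 999 in KO MKFs against 1035 and 1012 in floxed MKFs and did not pass. Of 5 checkpoint genes 3 fell, Bub3, a checkpoint protein that binds Bub1 and BubR1, among them at 762 and 785 in KO MKFs against 1017 and 1010 in floxed MKFs (-0.39, limma adjusted p = 0.00228). Bub1b was at 2459 and 2543 in KO MKFs against 2833 and 2969 in floxed MKFs (-0.21, limma adjusted p = 0.0139).

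Motor and kinetochore genes went both ways. Kif11, the kinesin that pushes spindle poles apart, fell, at 5516 and 5390 in KO MKFs against 8609 and 8576 in floxed MKFs (log2 fold change -0.66 ± 0.03, limma adjusted p = 0.000205). Kif18a rose, at 724 and 759 in KO MKFs against 554 and 584 in floxed MKFs (0.38, limma adjusted p = 0.00521), a call kept in 8 of 12 alternatives. Cenpf rose, at 14947 and 14010 in KO MKFs against 11720 and 12259 in floxed MKFs (0.27, limma adjusted p = 0.00841), and Ndc80, a microtubule-binding subunit of the kinetochore, rose by 0.16 (limma adjusted p = 0.0351). Spindle assembly genes fell in 4 of 5 cases, with Dlgap5, a microtubule-stabilising protein, at 2511 and 2572 in KO MKFs against 3471 and 3552 in floxed MKFs (-0.47, limma adjusted p = 0.000708). Top2a was at 19680 and 18451 in KO MKFs against 24411 and 25146 in floxed MKFs (-0.38, limma adjusted p = 0.00236). Mki67 was at 25083 and 24735 in KO MKFs against 28538 and 29919 in floxed MKFs (-0.23, limma adjusted p = 0.00699).

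The other lists were called both ways in KO MKFs. Cdkn1a was at 739 ± 22.6 in KO MKFs against 66 ± 1.41 in floxed MKFs (SD, n = 2; log2 fold change 3.47, limma adjusted p = 4.76e-05). Of 7 CDK inhibitors 5 rose (71.4%, against 24.3% of all genes) and 2 fell (28.6%, against 24.9%). Of 15 regulators that slow or favour mitotic entry, 11 fell (73.3%, against 24.9% of all genes) and 1 rose (6.67%, against 24.3%). Among those that fell was Chek1, the checkpoint kinase of the DNA damage response, at 346 in KO MKFs against 541.5 in floxed MKFs (-0.65, limma adjusted p = 0.00098). Of 12 cohesin genes 9 fell (75%, against 24.9% of all genes) and 2 rose (16.7%, against 24.3%). Wapl, the cohesin release factor, was among the 2 that rose, at 9368.5 in KO MKFs against 5628.5 in floxed MKFs (0.73, limma adjusted p = 0.000209). Of 24 S phase genes 9 rose (37.5%, against 24.3% of all genes) and 6 fell (25%, against 24.9%). Rrm2, a subunit of ribonucleotide reductase, rose, at 3708 in KO MKFs against 1378 in floxed MKFs (1.43, limma adjusted p = 9.93e-05). Mybl2 was at 1380.5 in KO MKFs against 843.5 in floxed MKFs (0.71, limma adjusted p = 0.00145). Ccnd1 was at 4424 in KO MKFs against 790 in floxed MKFs (2.48, limma adjusted p = 3.56e-05), and Ccnd2, another D-type cyclin, at 6.5 in KO MKFs against 356 in floxed MKFs (-5.66, limma adjusted p = 0.000356). Of 51 other mitotic genes 21 fell (41.2%) and 11 rose (21.6%), where 24.9% of all genes fell and 24.3% rose.

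**Figure D4:**
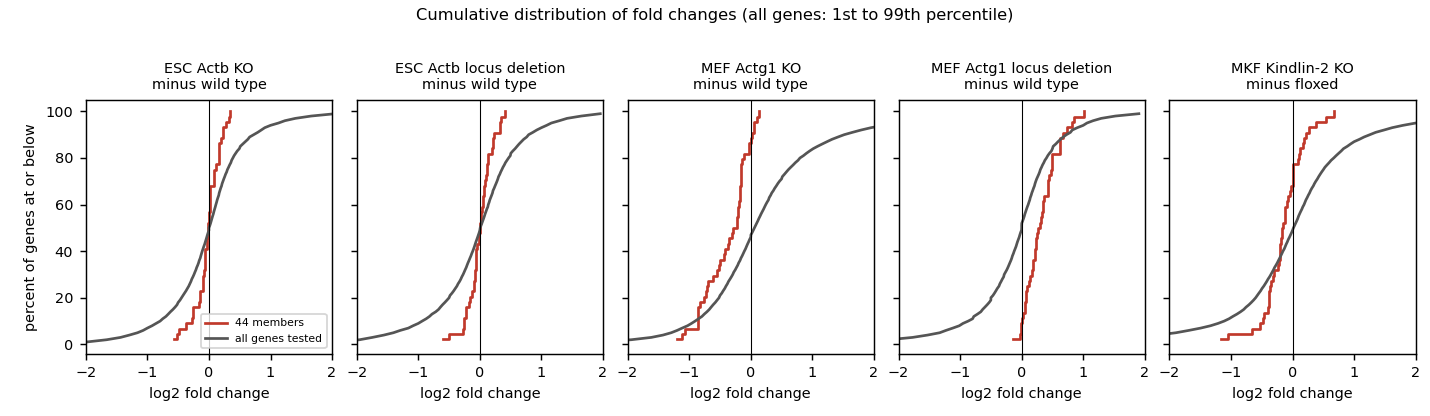
Cumulative percent (y axis) of log2 fold changes (x axis) for the 44 members and for all genes tested, from the 1st to the 99th percentile, in each comparison of a mutant with its control. The members' medians are -0.02 and 0.01 in the ESC panels, -0.26 and 0.28 in the MEF panels and -0.16 in the MKF panel, and the curve of the members is steeper than that of all genes in each.

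Actg1 KO MEFs and Kindlin-2 KO MKFs share no library, so their calls were laid side by side. Of the 24 members that fell in Actg1 KO MEFs, 9 fell in Kindlin-2 KO MKFs too, which is 37.5% of the first list and 42.9% of the 21 in the second. Of all 44 members 47.7% fell in Kindlin-2 KO MKFs and 54.5% fell in Actg1 KO MEFs, so both shares of the overlap lay below those of the members as a whole. They were Ccnb1, Ccnb2, Bub1b, Mad2l1, Sgo1, Kif11, Kif20b, Top2a and Mki67. Another 5 (Cdc25b, Aurka, Cenpf, Ndc80 and Kif18a) fell in Actg1 KO MEFs and rose in Kindlin-2 KO MKFs, which is 20.8% of the 24 and 83.3% of the 6 that rose, beside 13.6% of all members that rose in MKFs and the 54.5% that fell in MEFs. Whether these overlaps differ from the shares over all members was not tested. Aurka was the 1 member called in all 5 comparisons of a mutant with its control, lower in Actb KO ESCs, Actb locus deletion ESCs and Actg1 KO MEFs and higher in Actg1 locus deletion MEFs and Kindlin-2 KO MKFs. Nuf2, a kinetochore subunit, and Birc5, survivin, were called in none of the 5.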

How the data were processed

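RNA of 16 libraries was isolated with a miRNeasy micro kit with on-column DNase digestion, and libraries were made with a stranded SMARTer kit, per the labels' protocols. The submitters' processing notes name, with no role, STAR 2.5.3a, FastQC, Subread with featureCounts 1.6.0, and DESeq2 1.14.1, on mm10 (GRCm38). Strand use in counting and the treatment of reads that match several genes are not given in the sources used here. The deposited values are a whole-number score that looks, from gaps in its low values, like rounded read counts after division by a library factor, so no count model was used. Each table was scaled on its own, and tests stayed within a table.

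Values were taken as log2(value + 1) and tested two-sided with limma 3.58.1 (R 4.3.3), with a group-means model over all groups of a table, empirical Bayes moderation with a trend, genes with a mean of at least 1 and Benjamini-Hochberg adjustment over all genes tested, and were checked on simulated data. Fold changes are on that scale. Residual degrees of freedom were 3 in ESCs and MEFs and 2 in MKFs, which limits precision. The 44 members, the 9 context and 6 marker lists and the named genes were chosen with earlier results of these data known. Named were, per comparison, the members that passed (at most 12, by fold change), 10 fixed core genes, the targeted genes, Cdkn1a and Mybl2, and up to 3 genes per context list; other members named to complete a role or a comparison were picked after their values were seen. Libraries with the same number deviated together across 11369 genes in ESCs (r = 0.678 for wild type and KO, 0.349 for wild type and locus deletion, 0.492 for KO and locus deletion), a pairing that comes from the values. Replicates correlated at 0.981 to 0.996. Gene positions are from GENCODE M21 and promoter windows from RefSeq.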

Additional observations from a re-analysis of the deposited data

Results flagged for a closer look

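Between the 2 MEF mutants, 39 of 44 members were lower in Actg1 KO MEFs than in Actg1 locus deletion MEFs. Listed here are the 13 of them called in opposite directions against the wild type. Since that choice sets their direction, the values are a description and give no further test, and members outside the 13, such as Cdc25b at -1.38 and Ccnb2 at -1.13, differed as much as many of them. The log2 fold change of KO against locus deletion was -1.54 for Kif18a, -1.51 for Ube2c, -1.48 for Kif20a, -1.45 for Aurka, -1.28 for Tpx2, -1.27 for Cenpf and -1.25 for Bub1b. It was -1.20 for Kif20b, -1.06 for Ccnb1, -0.94 for Bub1, -0.83 for Sgo1, -0.57 for Cenpa and -0.44 for Top2a. Fibroblast markers differed between the same groups, at 7670 and 7950 per 1000000 in KO MEFs against 1900 and 1890 in locus deletion MEFs, and their part was not tested.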

How the results depend on the processing

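No called member turned its direction under an alternative; ESC medians, near 0, took either sign, and sign changes of genes that passed in neither setting were not counted. With 1 library left out at a time, the ESC comparisons lost their called members and most of their calls over all genes. The medians of the members then ran from -0.06 to 0.04 (KO), -0.05 to 0.08 (locus deletion) and -0.04 to 0.02 (KO against locus deletion). In MEFs 15 to 20 members fell in the KO (median -0.33 to -0.23), 12 to 21 rose and 0 to 1 fell in the locus deletion (median 0.20 to 0.35), and 25 to 41 were lower in the KO than in the locus deletion (median -0.70 to -0.60). In MKFs 3 to 7 fell and 0 to 2 rose (median -0.16 to -0.14). Without the trend, 0 members were called in each ESC comparison, where 0.039% to 1.51% of all genes rose or fell. In locus deletion MEFs 8 members rose, where 3.37% of all genes rose. In KO MKFs 3 rose and 11 fell, where 18.9% of all genes rose and 19.3% fell. With only the 4 libraries compared, 0 members fell in each ESC comparison, where 0.0174% to 1.1% of all genes fell. In KO MEFs 1 member rose, where 20.6% of all genes rose, and in locus deletion MEFs 12 rose, where 3.24% of all genes rose. After rescaling by median ratios, 1 member rose in KO MEFs, where 24.1% of all genes rose. The medians were then -0.20 in KO MEFs and -0.15 in KO MKFs. After rescaling without genes over 1% of a library, 1 member rose in KO MEFs, where 25.2% of all genes rose. The median was then -0.18 in KO MEFs and -0.53 for KO against locus deletion MEFs. The median of all genes in KO MEFs was 0.06 as reported, and 0.12 and 0.14 under these rescalings. The cause of these shifts was not tested.

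The replicate block called 3 lower members in KO ESCs, 2 higher and 2 lower in locus deletion ESCs, and 2 lower in KO against locus deletion ESCs. In MEFs deviations of same-numbered libraries correlated at -0.30 for wild type and KO, -0.21 for wild type and locus deletion, and 0.21 for KO and locus deletion. In MKFs they correlated at -0.095. Whether the numbers mark a pairing in MEFs or MKFs cannot be told from these values. The block gave 21 lower members in KO MEFs, where 18.3% of all genes were lower, and 23 higher in locus deletion MEFs, where 8.18% were higher. It gave 38 lower in KO against locus deletion MEFs, where 20% of all genes were lower. In KO MKFs it gave 4 higher and 19 lower, where 20.2% of all genes were higher and 20.8% lower. Crossing the wild-type numbers, chosen after seeing the data, gave 26 lower and 22 higher. With 2 libraries a group, changes near the spread between libraries could not be called.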
